A study of Mus musculus with 6 samples.

Results

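Mast cells and basophils carry a set of surface receptors, granule components and a transcription factor that together serve the response to IgE and to alarm cytokines. Transcripts of 8 such genes outside the protease family were followed in AE9a leukemia cells: Fcer1a, Ms4a2, Fcer1g, Hdc, Mitf, Il1rl1, Cd200r3 and Srgn. The genes were chosen by name, with earlier results of these data known, and each had 1 of the 53618 named rows of the table. Of these 8 genes, 7 reached 10 normalized counts in at least 3 libraries and were tested among 12298 genes, while Fcer1g stayed below this limit and is described by its values.

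AE9a, a shortened form of the AML1-ETO fusion, causes acute myeloid leukemia when expressed in mouse blood progenitors. Fetal liver cells of Usp18+/f UBCER-Cre mice had been transduced with an AE9a retrovirus that also expresses GFP, and the resulting leukemia was passed on to sub-lethally irradiated secondary recipients. Sick recipients were given oil, which keeps the cells Usp18+/f, or tamoxifen, which activates the Cre recombinase and is meant to yield Usp18+/Δ cells, and the GFP+Lin-c-Kit+ cells were sorted from the spleen 3 days after the first injection. Both groups carry the floxed allele and the Cre, whose promoter is active in all tissues, and the controls received no tamoxifen, so an effect of the drug and an effect of the deletion cannot be told apart. Each group held 3 mice with 1 library per mouse, and the ages of the mice were not used here. The comparison asks which transcripts of leukemia cells change when 1 allele of Usp18, a negative regulator of interferon signaling, is removed.

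The high-affinity IgE receptor, FcεRI, is built of an α chain that binds IgE (Fcer1a), a β chain that amplifies the signal (Ms4a2) and a pair of γ chains (Fcer1g), which carry the signaling motifs and are shared with Fc receptors and other activating receptors. Hdc makes histamine, Srgn encodes the proteoglycan serglycin that packs granule contents, Il1rl1 encodes ST2, the receptor of the alarm cytokine IL-33, and Cd200r3 encodes an activating receptor of the CD200 receptor family. Mitf encodes a transcription factor needed for mast cell development. In normal blood formation these genes are switched on in progenitors that commit to the mast cell and basophil lineage, many of which express the stem cell factor receptor c-Kit.

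The upstream sequences of the 3 IgE receptor chains are shown because these chains of 1 receptor differed widely in level. That of Cd200r3 is shown because this gene, with Ms4a2 and Fcer1a, was the most reduced of the tested genes in a library that stands apart. Each run is the 250 bases before a RefSeq start site on GRCm38.p6, 5′ to 3′ on the strand of the gene. Capitals mark GATAA, the core letters bound by GATA factors, or TTATC, which is GATAA on the opposite strand.
Fcer1a upstream, chr1:173227230-173227479, minus strand: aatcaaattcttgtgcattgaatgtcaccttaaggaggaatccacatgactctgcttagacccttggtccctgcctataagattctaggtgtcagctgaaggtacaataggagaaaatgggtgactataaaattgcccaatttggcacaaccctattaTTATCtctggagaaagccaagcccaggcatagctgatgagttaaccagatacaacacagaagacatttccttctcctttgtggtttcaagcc
Ms4a2 upstream, chr19:11623720-11623969, minus strand: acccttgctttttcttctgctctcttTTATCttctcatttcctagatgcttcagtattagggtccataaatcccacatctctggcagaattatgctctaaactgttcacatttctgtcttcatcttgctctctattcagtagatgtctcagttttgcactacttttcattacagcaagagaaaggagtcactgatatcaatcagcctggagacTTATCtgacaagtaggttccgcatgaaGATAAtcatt
Fcer1g upstream, chr1:171234350-171234599, minus strand: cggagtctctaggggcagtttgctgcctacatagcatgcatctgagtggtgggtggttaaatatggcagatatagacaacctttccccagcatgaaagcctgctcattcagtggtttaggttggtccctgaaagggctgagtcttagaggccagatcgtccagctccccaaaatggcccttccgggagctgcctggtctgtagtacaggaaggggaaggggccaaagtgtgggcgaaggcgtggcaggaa
Cd200r3 upstream, chr16:44943428-44943677, plus strand: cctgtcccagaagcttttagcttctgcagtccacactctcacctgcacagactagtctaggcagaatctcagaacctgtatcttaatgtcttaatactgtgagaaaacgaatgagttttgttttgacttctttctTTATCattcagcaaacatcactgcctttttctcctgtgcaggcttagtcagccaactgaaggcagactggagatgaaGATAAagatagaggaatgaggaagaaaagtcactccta

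RefSeq lists 12 start sites for the 8 genes, 3 of Mitf, 2 each of Il1rl1 and Srgn and 1 each of the others. GATAA was searched on both strands in windows from 250 bases before to 50 bases after each start. It was present in 7 of the 12 windows, belonging to 5 of the 8 genes (Fcer1a, Ms4a2, Mitf, Il1rl1 and Cd200r3), and in 25.4% of all 32851 windows of this length. Counting the start site as 0, the match began at -92 in Fcer1a, at -224, -37 and -10 in Ms4a2, and at -115 and -38 in Cd200r3. The windows of Fcer1g, Hdc and Srgn held no such letters. CATGTG, an E-box form that MITF can bind, was present in the Fcer1a window alone, at -208, and in 14.2% of all windows, while CACGTG was in none of the 12 and in 7.15% of all. GAAANNGAAA, the core of the interferon-stimulated response element, was in 1 of the 12 windows, the second of Srgn at -220, and in 3.44% of all. TTCNNNGAA, the core of the GAS element bound by STAT dimers, was in none of the 12 and in 8.30% of all. These matches describe letters and were not tested as binding sites.

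Values are normalized counts, reads that the authors scaled by a size factor for each library, and the depth was between 19172471 and 23785143 reads per library. Normalized counts of the targeted gene Usp18 were 217, 214 and 176 in oil and 477, 329 and 284 in tamoxifen, higher rather than lower. Its log2 fold change was 0.81 (limma adjusted p 0.666), or 0.60 without the tamoxifen 1 library described below. Counts summed over a gene do not show whether part of 1 allele was removed, and the deletion was not tested here. The groups are therefore named below by their labels only. Kit, the gene of the sort, had 8990, 8043 and 7512 normalized counts in oil and 4687, 7749 and 10976 in tamoxifen. Ptprc, which encodes the pan-leukocyte antigen CD45, was at or near 0 throughout, between 0.898 and 8.08 normalized counts. The library labelled tamoxifen 1 stood apart from the other 5. Its median Spearman correlation with them across genes was 0.916, against 0.989 to 0.995 for the others, and 0.00923% of its reads were mitochondrial, against 1.01% to 1.56%. Its deviation rose with the GC content of the gene (Spearman's 0.70 across genes, which are not independent replicates, against -0.22 to 0.036 in the others), and on the log2 scale its median was -1.09 for genes under 45% GC and 0.86 for genes over 55%. The fold changes of the 8 genes that were tested are therefore given with and without this library.

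All 3 chains of the IgE receptor were lowest in the tamoxifen 1 library, and they parted ways in the rest. Fcer1a had 4713, 2986 and 3527 normalized counts in oil and 936, 4388 and 6231 in tamoxifen (3742 ± 883 against 3851 ± 2688, SD, n = 3 each). Tamoxifen 3 was the highest and tamoxifen 1 the lowest of the 6, so that the groups overlapped. Ms4a2 had 17754, 19301 and 19161 normalized counts in oil and 2965, 16499 and 14036 in tamoxifen (18739 ± 856 against 11167 ± 7209, SD, n = 3 each). Here all 3 tamoxifen libraries lay below all 3 oil libraries, with or without tamoxifen 1. Fcer1g had 6.29, 8.68 and 5.57 normalized counts in oil and 1.28, 9.09 and 12.7 in tamoxifen, from 7, 9, 6, 1, 9 and 14 reads. So few reads set no order between the groups.

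Per kilobase of exon, Ms4a2 stood at 6661 ± 304 (SD, n = 3) normalized counts in oil, Fcer1a at 3750 ± 885 and Fcer1g at 7.83 ± 1.86. The length is that of all annotated exons of a gene merged. The transcripts in use can be shorter, so levels per kilobase compare genes only roughly, here and in the order of levels below. In the 5 libraries other than tamoxifen 1, Ms4a2 was 343 to 1069 times and Fcer1a 301 to 656 times the Fcer1g level per kilobase. The counts of the γ chain transcript were thus far below those of its partners in libraries of both groups. Ptprc also had very few counts here, and how far such counts reflect the RNA of the cells was not tested. No exon base of Fcer1g, or of any of the other 7 genes, is shared with another gene in the GENCODE vM21 annotation. The ratio of Ms4a2 to Fcer1a per kilobase was 1.34, 2.29 and 1.93 in oil and 1.12, 1.33 and 0.799 in tamoxifen, and in tamoxifen 3 the α chain was the more abundant of the pair.

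**Figure D1:**
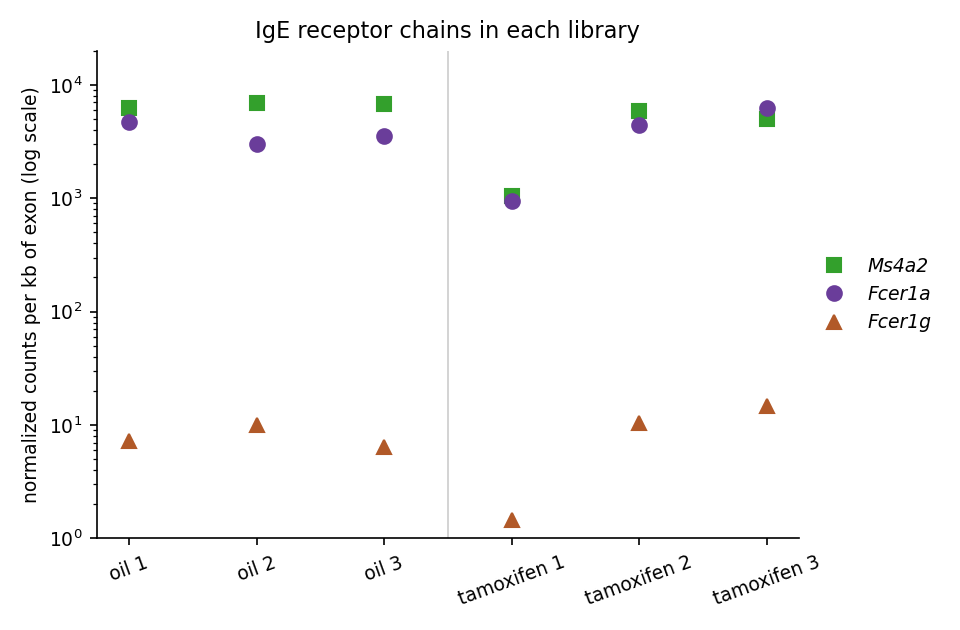
Normalized counts per kilobase of exon (log scale) of the 3 IgE receptor chains in each of the 6 libraries, 1 point per library. Ms4a2 and Fcer1a lie near each other, between 937 and 6861, and Fcer1g lies between 1.46 and 14.6 in every library.

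Of the granule genes, Hdc overlapped between the groups and Srgn did not. Hdc, the only enzyme that makes histamine, had 26390, 25732 and 21496 normalized counts in oil and 32583, 23073 and 29131 in tamoxifen. The groups overlapped, and tamoxifen 1 was here the highest library, unlike in the other 7 genes. Srgn had 27640, 26061 and 27779 normalized counts in oil and 18662, 25442 and 24675 in tamoxifen. All 3 tamoxifen libraries were below all 3 oil libraries, although tamoxifen 2 lay close to oil 2.

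The IL-33 receptor gene Il1rl1 had 40979, 38788 and 31601 normalized counts in oil and 16744, 34114 and 35489 in tamoxifen. Tamoxifen 1 was the lowest, and the other 2 tamoxifen libraries fell among the oil libraries. Cd200r3, whose protein signals through an adaptor, had 3324, 3681 and 2668 normalized counts in oil and 782, 2768 and 2585 in tamoxifen. Tamoxifen 2 lay above oil 3, so the groups overlapped. How the authors' counting treated reads shared among the related Cd200r genes is not given in the sources used here. Mitf had 1741, 1477 and 1294 normalized counts in oil and 1085, 1461 and 1647 in tamoxifen, and tamoxifen 2 and 3 lay inside the oil range.

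**Figure D2:**
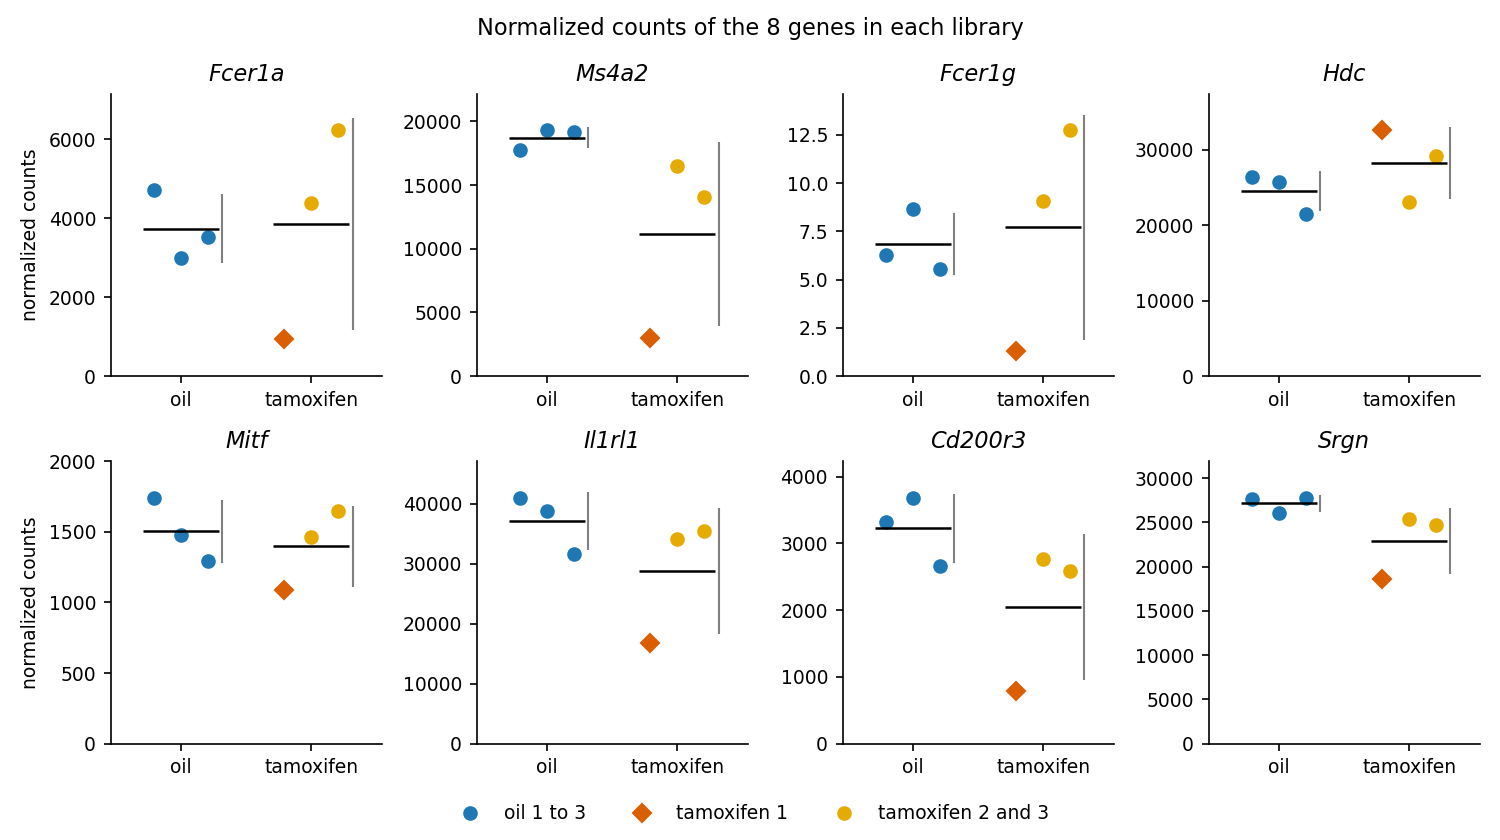
Normalized counts of each of the 8 genes in the oil and tamoxifen libraries, 1 point per library, with the group mean as a horizontal line and 1 SD either side as a vertical line. The diamond, tamoxifen 1, is the lowest point for 7 genes and the highest for Hdc, and Ms4a2 and Srgn are the genes whose groups do not overlap.

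Ordered by their mean level per kilobase of exon in oil, the genes ran from Srgn (12368 ± 434 normalized counts per kilobase, SD, n = 3) through Ms4a2, Il1rl1 (5385 ± 712), Hdc (3841 ± 416), Fcer1a, Cd200r3 (539 ± 85.9) and Mitf (243 ± 36.2) to Fcer1g. Neighbours in this order did not overlap across the 3 oil libraries, except that Hdc and Fcer1a did not differ beyond their spread. Among 10807 tested protein-coding genes, Srgn ranked 60 to 64 in the oil libraries and 71 to 99 in the tamoxifen libraries. Ms4a2 ranked 116 to 129 in oil, 135 and 155 in tamoxifen 2 and 3, and 1210 in tamoxifen 1. Hdc kept a rank between 171 and 248 in all 6 libraries. Mitf, as the transcription factor of the set, ranked between 3928 and 5169. In the 5 libraries other than tamoxifen 1, Srgn, Ms4a2, Il1rl1, Hdc and Fcer1a each ranked among the top 266 of these genes.

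In limma over all 6 libraries, 0 of the 7 tested genes passed an adjusted p of 0.05, as did 0 of all 12298 genes (0%). Without adjustment 550 genes had a p under 0.05, none of them among the 7. DESeq2 called 71 genes (0.293% of 24247), edgeR 0 and limma voom 0, and none of these tools called any of the 8. The log2 fold change of tamoxifen against oil was -0.32 (standard error 0.68, limma adjusted p 0.816) for Fcer1a and -1.09 (0.63, 0.666) for Ms4a2. It was -0.85 (0.49, 0.666) for Cd200r3, -0.44 (0.32, 0.666) for Il1rl1 and -0.26 (0.17, 0.666) for Srgn. For Mitf it was -0.12 (0.21, 0.784) and for Hdc 0.20 (0.19, 0.667). These fold changes are on the log2(value + 1) scale. The 95% confidence intervals were wide: -2.59 to 0.42 for Ms4a2 and -1.95 to 1.31 for Fcer1a, but -0.25 to 0.64 for Hdc and -0.66 to 0.15 for Srgn. A value whose groups do not overlap can reach no p below 0.1 in an exact two-sided permutation test of 3 against 3 libraries. In 2 of the 7 genes, Ms4a2 and Srgn, tamoxifen was lower without overlap, against 9.69% of all tested genes, and in 0 of the 7 it was higher without overlap, against 7.86%. The median log2 fold change of the 7 genes was -0.32, beside -0.017 for all tested genes.

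Without the tamoxifen 1 library the fold changes shrank or turned, and limma called 0 of the 7 genes, against 0.333% of all genes (41 genes). Ms4a2 was still lower, at -0.30 (log2, standard error 0.094), with a 95% interval of -0.51 to -0.087 and a limma adjusted p of 0.258. Fcer1a changed sign, to 0.51 (standard error 0.19), with an interval of 0.083 to 0.93 and a limma adjusted p of 0.329. Cd200r3 was at -0.26 (limma adjusted p 0.447) and Srgn at -0.12 (0.621). Il1rl1, Hdc and Mitf were at -0.085, 0.085 and 0.055. The 95% interval of the difference was -0.35 to 0.19 for Il1rl1, -0.20 to 0.37 for Hdc and -0.22 to 0.33 for Mitf. Ms4a2 and Srgn were again the 2 of the 7 genes lower without overlap, against 16.8% of all genes, and 0 were higher without overlap, against 12.6%. The median of the 7 was -0.085.

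**Figure D3:**
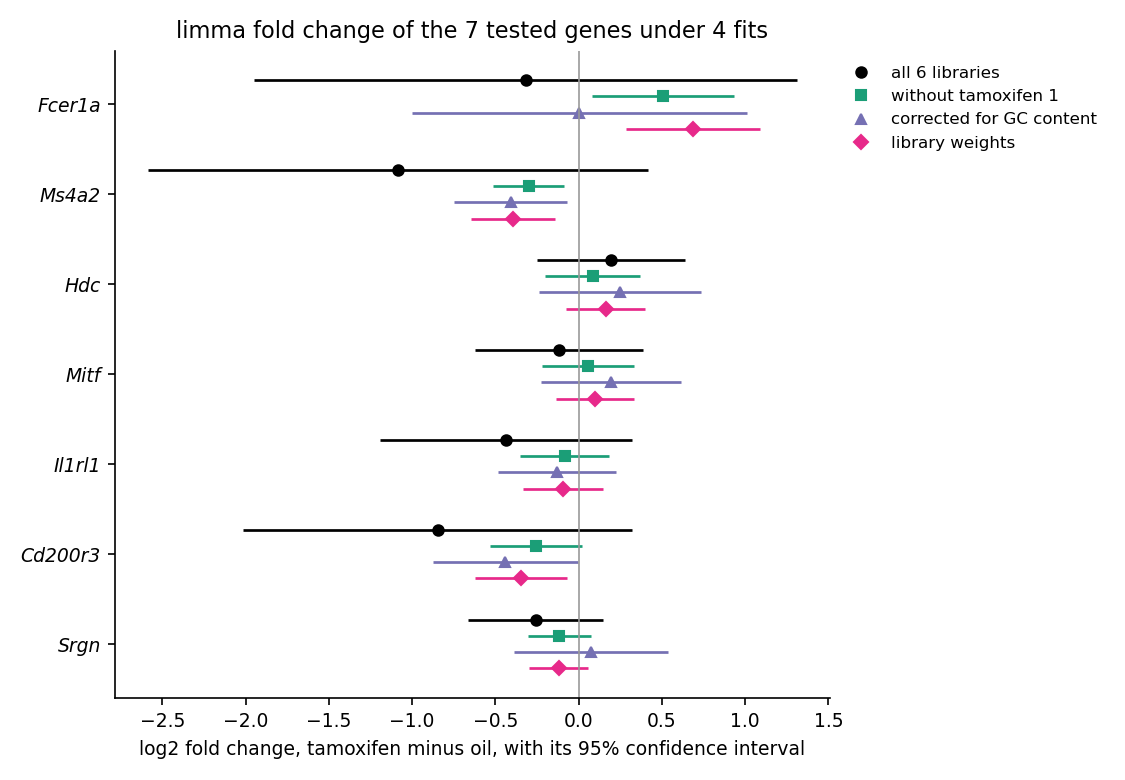
log2 fold change of tamoxifen against oil of the 7 tested genes on the horizontal axis, with its 95% confidence interval as a line, in limma fits to all 6 libraries, without tamoxifen 1, after a correction for GC content and with library weights. Compared with the fit to all 6 libraries, every interval is narrower without tamoxifen 1 and with library weights, Ms4a2 stays below 0 in all 4 (-1.09, -0.30, -0.41 and -0.39), and Fcer1a moves from -0.32 to 0.51, 0.0043 and 0.69.

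The 7 tested genes differed in how far tamoxifen 1 departed from the rest, and are given here beside the GC content of their longest annotated transcript. Relative to the median of the other 5 libraries, this library held 0.167 times the Ms4a2 value (37.6% GC), 0.283 times that of Cd200r3 (41.2%) and 0.213 times that of Fcer1a (43.1%). It held 0.472 times the Il1rl1 value (43.4%), 0.716 times that of Srgn (42.8%) and 0.735 times that of Mitf (43.4%), but 1.27 times that of Hdc (48.3%). Fcer1g, with the highest GC content of the 8 (51.8%), had 1 read there against 6 to 14 in the others. Of 13 other tested genes under 45% GC in the lists described next, 12 were also lower in tamoxifen 1 than in the median of the other 5. After a correction of each library for GC content, the log2 fold changes were 0.0043 for Fcer1a, -0.41 for Ms4a2, -0.44 for Cd200r3, -0.13 for Il1rl1, 0.076 for Srgn, 0.19 for Mitf and 0.25 for Hdc, and limma called none of the 7. With library weights, which lower the influence of a library that fits poorly, 1 of the 7 genes passed, against 6.36% of all genes. This was Fcer1a, higher in tamoxifen by 0.69 (standard error 0.18, limma adjusted p 0.0472). With the same weights Ms4a2 was at -0.39 (limma adjusted p 0.0661).

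**Figure D4:**
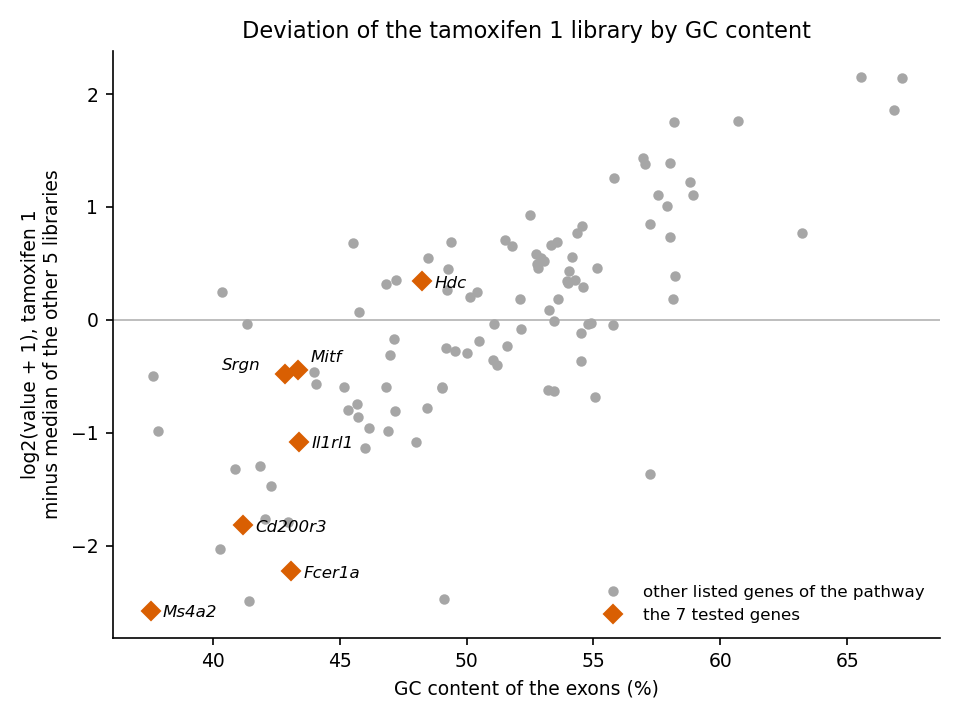
log2(value + 1) in the tamoxifen 1 library minus the median of the other 5 libraries, against GC content in percent. The GC content, labelled as that of the exons, is that of the longest annotated transcript of each gene. Diamonds, named, are the 7 tested genes, and circles are the other tested genes of the 10 lists. Points rise from left to right, with Ms4a2 at 37.6% GC at the lower left and Hdc at 48.3% GC above 0.

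Genes that work with the 8 were taken from 10 lists, which hold 125 further genes in the table, 98 of them tested. The lists too were chosen with earlier results of these data known, so their shares are descriptions. In limma over all 6 libraries 0 of the 98 passed the threshold, with 16 at an unadjusted p under 0.05 (16.3%, beside 4.47% of all tested genes). In tamoxifen 15 were higher without overlap (15.3%, beside 7.86% of all) and 6 lower (6.12%, beside 9.69%). After the GC correction limma also called 0 of the 98. The correction moved log2 fold changes both ways. Lat (57.5% GC) went from 0.67 to 0.41 and Cebpb (67.2%) from 1.35 to 0.89, while Cpa3 (41.3%) went from 0.74 to 1.14. Without tamoxifen 1 limma called 41 of all tested genes (0.333%), 38 of them higher in tamoxifen. Of the 98 listed genes 4 passed there, all higher in tamoxifen. These were the mast cell carboxypeptidase Cpa3, the tryptases Tpsb2 and Tpsg1, and Mrgprb2, the receptor through which basic peptides activate mast cells. Mrgprb2 had 11.7, 10.6 and 14.9 normalized counts in oil and 10.2, 72.7 and 86.4 in tamoxifen. Its log2 fold change was 2.60 ± 0.31 (standard error) without tamoxifen 1 (limma adjusted p 0.00792) and 1.65 ± 0.79 over all 6 libraries (limma adjusted p 0.666). Cpa3 had 3823, 3992 and 4174 normalized counts in oil and 4074, 7774 and 9431 in tamoxifen (1.10 ± 0.09, limma adjusted p 0.00183 without tamoxifen 1, and 0.74 ± 0.31, 0.666 over all 6). The 8 genes themselves gave no such call in those 5 libraries. With library weights over all 6, limma called 28 of the 98 listed genes (28.6%, beside 6.36% of all tested genes), 26 higher and 2 lower in tamoxifen, 8 of them among the 11 tested proteases. DESeq2 called 2 of the 98 over 6 libraries (Tpsb2 and Tpsg1). Without tamoxifen 1 it called 8 of the 98, beside 230 of all 23788 genes it fitted (0.967%). The 8 were the 4 above with Mcpt8, Tph1 and Il4ra higher and Cd200r4 lower, while edgeR called the same 4 as limma. In the lists that follow, a gene passed if limma called it. Beside the counts per list stand 0.333% of all tested genes called without tamoxifen 1 and 6.36% called with library weights. Over 6 libraries 7.86% of all tested genes were higher and 9.69% lower without overlap.

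Downstream of the IgE receptor, 0 of 17 tested signaling genes passed with or without tamoxifen 1. With library weights 5 passed (29.4%, beside 6.36% of all tested genes), all higher in tamoxifen (Syk, Lat, Lat2, Plcg1 and Plcg2, limma adjusted p 0.0214 to 0.0385). Without weights the median log2 fold change of the 17 was 0.13 over 6 libraries and 0.048 without tamoxifen 1. Lyn, the kinase that phosphorylates the receptor, had 2955, 2775 and 2579 normalized counts in oil and 2913, 2723 and 3002 in tamoxifen. Syk, the kinase recruited by the γ chain, had 372, 322 and 277 in oil and 475, 401 and 520.2 in tamoxifen, which did not overlap (0.53, limma adjusted p 0.666, or 0.51 without tamoxifen 1). In all, 5 of the 17 were higher without overlap, beside 7.86% of all tested genes. Among them were the adaptor Lat at 0.67 and the phospholipase Plcg2 at 1.01 on the log2 scale, or 0.40 and 0.84 without tamoxifen 1. The phosphatase gene Ptpn6, a negative regulator, was the 1 gene lower without overlap, at 2984 to 3203 in oil and 2772 to 2923 in tamoxifen (-0.11, limma adjusted p 0.686). These transcripts were present in the same libraries in which Fcer1g had at most 14 reads.

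Among 14 genes for adaptors like Fcer1g and the receptors that pair with them, 8 were tested and 0 passed with or without tamoxifen 1. With library weights 4 passed, Tyrobp, Fcgr3 and Clec4d higher (1.12, 1.06 and 0.95 on the log2 scale) and Cd200r4 lower (-0.66), with limma adjusted p from 0.0116 to 0.0330. Tyrobp, which encodes the related adaptor DAP12, had 48.5, 31.8 and 31.6 normalized counts in oil and 47.3, 51.5 and 89.1 in tamoxifen. Cd200r4, a close relative of Cd200r3, had 1862, 1649 and 1423 in oil and 569, 1328 and 979 in tamoxifen. This is lower without overlap, as for Ms4a2, and its log2 fold change was -0.85 (limma adjusted p 0.666), or -0.52 without tamoxifen 1 (0.196). Clec4d, a C-type lectin receptor gene, was higher without overlap, with 54.8, 43.4 and 44.6 in oil and 65.2, 74.8 and 96.4 in tamoxifen (0.70, limma adjusted p 0.666, or 0.83 and 0.203 without tamoxifen 1). Cd200r2 was at 44.0, 58.9 and 70.6 in oil and 23.0, 46.5 and 31.8 in tamoxifen. Fcgr3, an IgG receptor that uses the γ chain, was at 427 to 863 in oil and 658 to 1250 in tamoxifen.

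In the IL-33 receptor pathway 0 of 8 tested genes passed, with or without tamoxifen 1 or with library weights. Il1rap, the co-receptor of ST2, had 843, 808 and 759 normalized counts in oil and 222, 641 and 628 in tamoxifen, lower without overlap (-0.84, limma adjusted p 0.666). Without tamoxifen 1 it was at -0.34 (0.192). Il33 itself had 0 reads in all 6 libraries. The adaptor Myd88 was also lower without overlap, by a small margin, at 1058 to 1096 in oil and 965 to 1051 in tamoxifen (-0.071, limma adjusted p 0.795).

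For amine handling 6 genes were tested and 0 passed with or without tamoxifen 1, while Tph1, Slc18a2 and Hrh2 passed with library weights, all higher in tamoxifen (limma adjusted p 0.0138, 0.0322 and 0.0158). Tph1, the first enzyme of serotonin synthesis, had 7388, 7982 and 6080 normalized counts in oil and 12802, 8748 and 12075 in tamoxifen, higher without overlap (0.64, limma adjusted p 0.666, or 0.53 without tamoxifen 1). Slc18a2, the vesicular transporter that loads histamine and serotonin into granules, overlapped between the groups, at 797 to 1011 in oil and 533 to 1450 in tamoxifen. Of 15 tested granule and exocytosis genes 0 passed with or without tamoxifen 1, and Cd63 and Ndst1 were higher with library weights (limma adjusted p 0.0276 and 0.0432). Cd63, a granule membrane protein exposed on degranulation, was higher without overlap (0.77, limma adjusted p 0.666, or 0.78 without tamoxifen 1). Ndst2, which sulfates the heparin chains that serglycin carries, had 16371 to 18222 in oil and 16352 to 18397 in tamoxifen.

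Of 12 tested transcription factors that act beside Mitf, 0 passed with or without tamoxifen 1. Gata2 had 10484, 10840 and 8872 normalized counts in oil and 13302, 10154 and 9492 in tamoxifen. Cebpb, at 84.4, 91.7 and 127 in oil and 566, 139 and 208 in tamoxifen, was the factor with the smallest p (1.35, limma adjusted p 0.666), and without tamoxifen 1 its log2 fold change was 0.77 (0.250). With library weights Cebpb was the 1 factor that passed (0.97, limma adjusted p 0.0148). Among the 14 other surface receptors tested, Csf2rb2 and Il4ra were higher without overlap, at 1.02 and 0.74 on the log2 scale (0.97 and 0.46 without tamoxifen 1), and in limma both passed with library weights alone (adjusted p 0.00737 and 0.0109), as did Itga2b and Crlf2, both higher. The lists of lipid mediators (4 tested) and cytokines (3 tested) gave no gene past the threshold in any of these 3 fits. In the cytokine list, Osm was higher without overlap, at 537 to 612 in oil and 661 to 1040.3 in tamoxifen (log2 0.42, or 0.21 without tamoxifen 1). Il4 was lower without overlap, at 581 to 612 and 208 to 576 (-0.61, or -0.16 without tamoxifen 1).

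**Figure D5:**
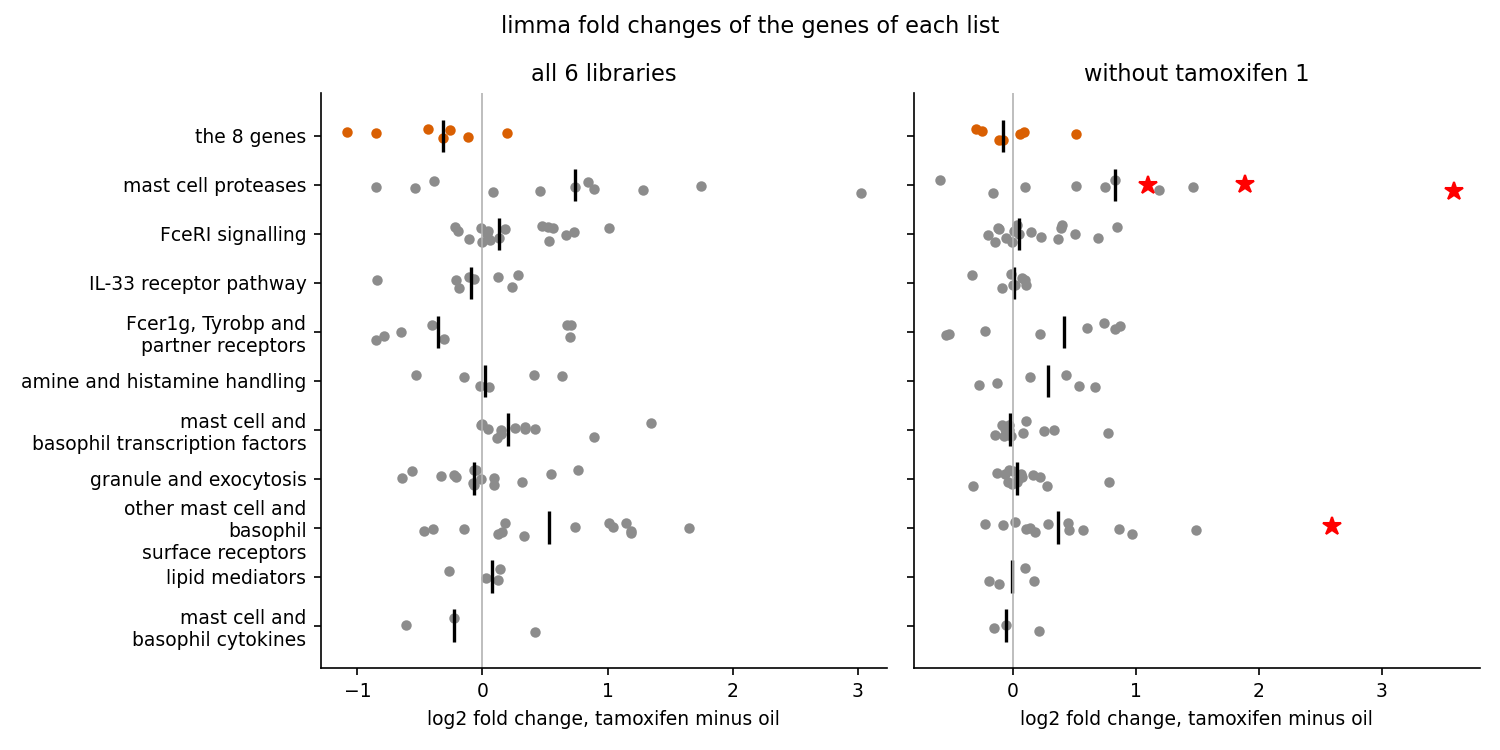
limma log2 fold change of tamoxifen against oil (horizontal axis) of each tested gene of the 10 lists and of the 7 tested genes of the set (top), over all 6 libraries and without tamoxifen 1, with the median of each list as a vertical line and genes past an adjusted p of 0.05 as stars. No gene passes over 6 libraries, and 4 pass without tamoxifen 1, 3 mast cell proteases and Mrgprb2.

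The genes most alike in pattern were sought over the 6 libraries by Pearson's correlation of log2(value + 1). This is a description in which the tamoxifen 1 library carries most of the spread, except for Hdc and Mitf. For these the other 5 libraries ranged 1.36-fold and 1.34-fold, while tamoxifen 1 held 1.27 and 0.735 times their median. Fcer1a was most like Btg1 (0.996), Gm42715 (0.995) and Id2 (0.995), and among the listed genes most like Clec4e (0.988). Ms4a2 was most like Hnrnph2, G2e3 and Rps6ka3 (0.9999, 0.9999 and 0.9998), and among the listed genes Il1rap (0.989). Il1rl1 was most like Efcab7 (0.999), Cd200r3 most like Gm44186 (0.999) and Srgn most like Rps4x (0.999). Mitf was most like Rsph3a (0.989), followed by the histamine receptor gene Hrh4 (0.986), and Hdc most like Dcaf6 (0.996). The next in line were Zfyve16 and Chic2 for Il1rl1, Ralgapb and Rnf19a for Cd200r3, Taf2 and Hbs1l for Srgn, Sccpdh for Mitf, and Plcb2 and Sh2d3c for Hdc. Within the set, Cd200r3 and Il1rl1 were the pair most alike over 6 libraries (0.985), and this value was 0.80 over the 5 libraries without tamoxifen 1. Over those 5 the pair most alike was Hdc and Mitf, at 0.85, against -0.21 over all 6. Fcer1a and Ms4a2, the chains of 1 receptor, were at 0.86 over 6 libraries and at -0.92 over those 5.

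Markers of other cells that the sort could hold ranged from absent to abundant, and their part in these results was not tested. All 7 NK cell markers had at most 3 reads in every library, as did 5 of 7 eosinophil, 5 of 7 T cell, 3 of 7 neutrophil and 3 of 6 B cell markers. The B cell markers summed to 13.5 to 27.8 normalized counts in oil and 50.02 to 57.5 in tamoxifen. The neutrophil markers summed to 10.8 to 23.2 in oil and 26.4 to 39.6 in tamoxifen. Both sums were higher in tamoxifen without overlap, while the eosinophil and T cell sums overlapped. The 1 tested B cell marker, Ighm, was higher without overlap (log2 1.54, limma adjusted p 0.666). The 1 tested neutrophil marker, Mmp8, overlapped (-1.47, limma adjusted p 0.666). The 11 macrophage markers summed to 89.7 to 204 normalized counts in oil and 242 to 340.5 in tamoxifen, also higher without overlap. Of these markers 2 (Marco and Vsig4) were at or near 0, and 6 were tested. Of those 6, 4 were higher without overlap, beside 7.86% of all tested genes, and limma called 0 with or without tamoxifen 1. Their median log2 fold change was 1.27, or 1.26 without tamoxifen 1. The 7 megakaryocyte and platelet markers summed to 5507 to 6063 in 5 libraries and to 14053 in tamoxifen 1. The 7 erythroid markers summed to 50626 to 70370.3 in oil and 55562 to 87952 in tamoxifen. In bulk RNA, fewer cells that express a gene and less RNA per cell cannot be told apart, for the 8 genes as for these markers. Basophils and mast cells are both known to express most of the 8 genes, and the basophil protease gene Mcpt8 had 26.0 to 40.9 normalized counts in oil and 60.1 to 96.4 in tamoxifen.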

How the data were processed

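Bulk RNA-seq of 6 libraries (3 oil, 3 tamoxifen) was used as deposited. Per the labels and the study's methods, the authors aligned reads with STAR to mm10 and used DESeq2, and the deposited values are a normalized signal (read counts divided by 1 size factor per library). Annotation version and strand setting are not given in the sources used here. In each library 100% of values were whole multiples of the value of 1 read (tolerance 0.01 reads), so whole reads were recovered. Of 55450 rows, 1832 unnamed ones (0.0400% to 0.0614% of reads) were left out. The main test was limma 3.58.1 (R 4.3.3, eBayes with trend, two-sided) on log2(value + 1) for genes with 10 or more in at least 3 libraries, with Benjamini-Hochberg adjustment over all genes and a threshold of 0.05. Alternatives were edgeR 4.0.16, DESeq2 1.42.0 and voom on recovered reads, other scalings, pseudocounts and filters, a GC correction, library weights, a replicate block and leaving libraries out. limma was checked on simulated data with a dispersion of 0.05, where it recovered 100% of 200 genes changed by 2 on the log2 scale, with 7 false calls. No simulated library stood apart or carried a GC trend, unlike tamoxifen 1, so this checks the code and not the power in these data. The members and lists were chosen with earlier results of these data known. Named genes were the 8 members, Usp18, Kit, up to 3 genes per list with the smallest p plus any past the threshold, and the genes most alike to each member; other genes named were chosen after their values were seen. Promoters are from RefSeq (all 8 genes matched) and coordinates from GENCODE vM21 (GRCm38), matched by symbol. The result of 1 listed gene is not reported here.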

Additional observations from a re-analysis of the deposited data

How the results depend on the processing

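Of 21 alternatives to limma over 6 libraries, Ms4a2, Cd200r3 and Il1rl1 stayed lower and Hdc higher in tamoxifen in all 21 (log2 fold changes -1.54 to -0.27, -1.17 to -0.25, -0.63 to -0.07 and 0.085 to 0.33). The count of genes past the threshold was 71 with DESeq2, 2 after GC correction, 782 with library weights, 49 in edgeR and 230 in DESeq2 without tamoxifen 1, and 0 to 41 in limma with 1 library left out, where the 41 came without tamoxifen 1. Of the 8 genes, 1 passed with library weights and 0 in every other fit. Fcer1a turned to 0.042 in DESeq2, 0.066 in edgeR, 0.0043 after GC correction with or without the replicate block and 0.69 with library weights, and ranged from -0.86 to 0.51 with 1 library left out. Without tamoxifen 1 it was 0.53 in edgeR and 0.52 in DESeq2. Mitf turned to 0.19 after GC correction with or without the block, 0.099 with library weights, 0.071 in edgeR and 0.061 in DESeq2 without tamoxifen 1, and ranged from -0.25 to 0.055 with 1 library left out. Srgn turned to 0.076 after GC correction with or without the block. Why these values moved was not tested. Libraries with the same replicate number did not deviate together (correlations of deviations -0.024, 0.061 and -0.15), and a fit with the replicate number as a block called 0 genes, with 426 at an unadjusted p under 0.05. The median over genes was -0.017 in limma, and without an expression filter 0.040 in limma and 0.11 in DESeq2. Depth limits Fcer1g, at 1 to 14 reads. Labels name separate mice, 3 per group, so the spread between them limits every comparison.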
